A study of Rattus norvegicus with 31 samples.

Results

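The arrays described here are the 10 with the highest and the 10 with the lowest average of 5 NF-kB target genes, out of 31 arrays of rat blood cells. The score of an array was the mean log ratio of Nfkbia, Nfkbiz, Tnfaip3, Icam1 and Ccl3, taken over all probes of a gene first and then over the genes. The 10 highest arrays are called the high set, the 10 lowest the low set, and the remaining 11 the middle arrays. The sets were thus chosen by the measured log ratios of these 5 genes on the same arrays. For this reason differences between them are given as a description with no test, and the 5 genes are left out of every count of co-varying genes.

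The series measured RNA of PBMC, the mononuclear fraction of blood that holds lymphocytes and monocytes, in rat offspring after 4 months of free feeding on chow. Offspring of dams whose food was cut by 20% between days 1 and 12 of gestation were suckled with added leptin, a hormone of fat tissue also found in milk (CR-L, 13 arrays), or without it (CR, 11 arrays), and offspring of unrestricted dams served as controls (WT, 7 arrays). Leptin was given until postnatal day 21 in daily amounts that began at 1.0 ng and ended at 43.8 ng, 5 times the average intake from milk. Each array held 1 sample in red (Cy5) against a common pool in green (Cy3) made from 5 samples per group, and every value below is a log2 ratio to that pool unless stated. The labels speak of 16 mated rats and give neither dam nor sex per sample, so animals may share a dam and p-values may be too small.

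NF-kB is a family of dimeric transcription factors that wait in the cytoplasm, held by inhibitor proteins of the IkB family. Receptors for microbial products, interleukin 1 or tumour necrosis factor act through adaptor proteins and kinases that mark the inhibitor for destruction, and the freed dimers enter the nucleus and switch on cytokines, chemokines, adhesion molecules and their own inhibitors. In blood, monocytes and neutrophils give strong responses of this kind.

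Of the 5 genes that set the score, Nfkbia encodes the IkB alpha inhibitor, Nfkbiz a nuclear IkB protein, Tnfaip3 a ubiquitin-editing enzyme that shuts the pathway down, Icam1 an adhesion molecule and Ccl3 a chemokine. They were read by 6 probes of 60 bases, of which 2 belong to Nfkbiz. The Nfkbia probe lies on the minus strand at chr6:75730438-75730497 of build rn4, per the array files, and is shown because IkB alpha is the classical inhibitor of the pathway.
Nfkbia probe: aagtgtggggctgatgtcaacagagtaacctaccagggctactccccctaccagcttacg

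Promoters of 3 score genes and of the 2 chemokine genes with the largest differences between the sets are shown because each holds 1 copy of a kappa B motif near the start of transcription. The windows run from 250 bases before the start to 50 after it, on build GRCr8 and from RefSeq, 5′ to 3′ on the gene's strand, with the motif or its reverse complement in capitals. The fourth score gene with a window, Icam1, has no match, so the motif is in 3 of 4 windows of score genes, and Ccl3 has no window. The motif searched reads GGGA, any base, TT, any base, CC. Positions are Nfkbia chr6:78597023-78597322 (minus strand), Nfkbiz chr11:58251471-58251770 (plus strand), Tnfaip3 chr1:15543930-15544229 (minus strand), Cxcl1 chr14:17479272-17479571 (minus strand) and Cxcl2 chr14:17467206-17467505 (minus strand).
Nfkbia: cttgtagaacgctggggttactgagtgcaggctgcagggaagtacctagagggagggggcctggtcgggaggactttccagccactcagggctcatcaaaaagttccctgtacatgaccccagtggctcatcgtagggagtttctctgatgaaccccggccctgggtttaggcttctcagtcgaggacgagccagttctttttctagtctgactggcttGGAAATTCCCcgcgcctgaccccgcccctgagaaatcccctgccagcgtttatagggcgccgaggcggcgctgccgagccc
Nfkbiz: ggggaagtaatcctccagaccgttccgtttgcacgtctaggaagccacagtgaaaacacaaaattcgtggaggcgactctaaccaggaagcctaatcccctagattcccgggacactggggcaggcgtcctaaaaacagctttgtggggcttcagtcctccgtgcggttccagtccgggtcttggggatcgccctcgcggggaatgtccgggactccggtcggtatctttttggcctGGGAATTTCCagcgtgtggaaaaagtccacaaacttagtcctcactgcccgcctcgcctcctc
Tnfaip3: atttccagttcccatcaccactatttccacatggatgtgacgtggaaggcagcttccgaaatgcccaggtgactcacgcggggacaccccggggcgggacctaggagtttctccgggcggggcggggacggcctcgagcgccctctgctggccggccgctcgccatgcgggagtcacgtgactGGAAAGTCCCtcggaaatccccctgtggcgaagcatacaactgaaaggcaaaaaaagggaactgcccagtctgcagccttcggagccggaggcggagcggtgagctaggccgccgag
Cxcl1: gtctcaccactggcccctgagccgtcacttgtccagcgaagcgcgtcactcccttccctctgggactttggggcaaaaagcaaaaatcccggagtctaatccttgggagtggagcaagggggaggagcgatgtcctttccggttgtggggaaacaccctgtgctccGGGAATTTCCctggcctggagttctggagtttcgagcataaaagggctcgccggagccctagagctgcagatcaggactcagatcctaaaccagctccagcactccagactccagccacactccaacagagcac
Cxcl2: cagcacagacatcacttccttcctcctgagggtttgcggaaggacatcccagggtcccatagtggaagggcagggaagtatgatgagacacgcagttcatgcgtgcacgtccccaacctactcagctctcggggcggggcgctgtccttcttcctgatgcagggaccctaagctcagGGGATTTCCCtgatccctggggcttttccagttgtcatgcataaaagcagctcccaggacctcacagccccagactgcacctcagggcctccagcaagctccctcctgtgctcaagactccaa

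The first base of the motif lay 31 bases before the start in Nfkbia, 13 in Nfkbiz, 67 in Tnfaip3, 84 in Cxcl1 and 73 in Cxcl2. On both strands, it was found in 371 of 33469 RefSeq promoter windows of the same length, or 1.11%, and a narrower form with T as the second free base in 121, or 0.362%. Both motifs were chosen after the values had been seen, and every match to the narrower one is also a match to the wider. The wider motif was in 3 of 13 windows found for the 15 genes with the largest positive differences (Cxcl2, Cxcl1 and Cd83) and in 0 of 18 windows found for the 15 with the largest negative differences, where a gene can have more than 1 window. These matches describe letters in the windows and not binding.

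The score averaged 0.35 ± 0.13 in the high set and -0.45 ± 0.24 in the low set (SD, n = 10 each), and it ran from -0.23 to 0.16 in the middle arrays. The array just inside the high set was WT 5 at 0.203, and the array just outside was CR 1 at 0.163. At the other edge, CR-L 13 stood just outside the low set at -0.229 and CR 4 just inside at -0.251. Neither edge lay at a wide gap, as the plot of scores by array shows. CR-L 6 at -0.98 and CR-L 2 at -0.76 were the lowest of all arrays.

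**Figure D1:**
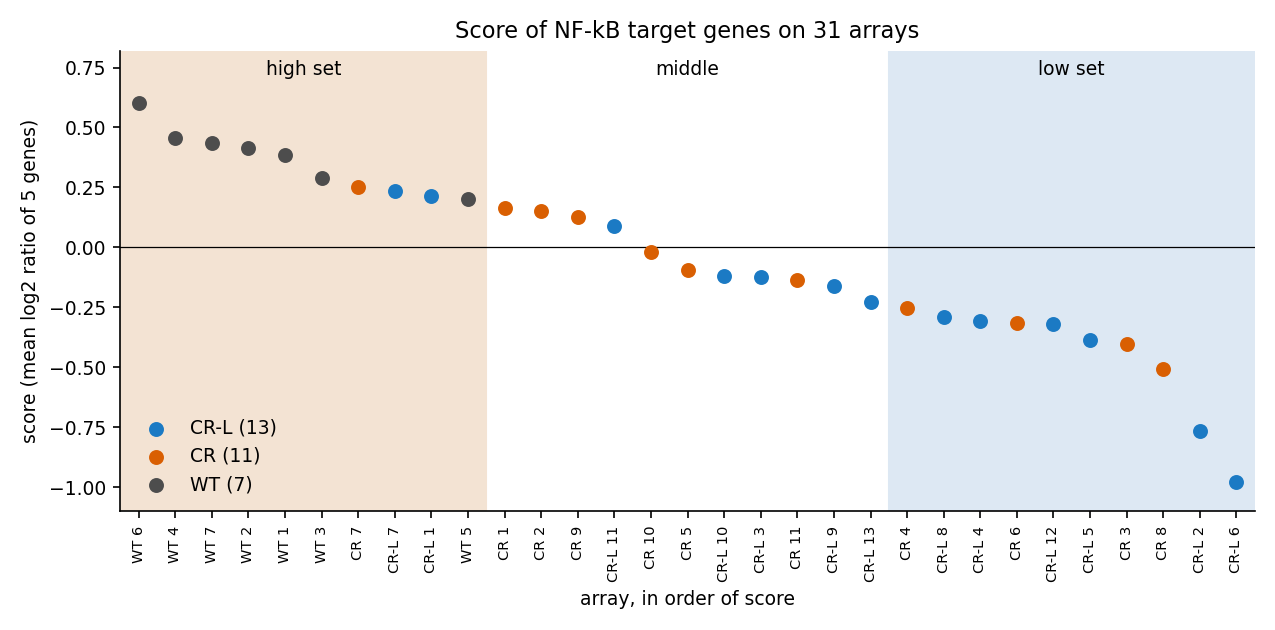
Each point is 1 array, placed by rank on the x axis and by its score, the mean log2 ratio of 5 NF-kB target genes, on the y axis, with colours for the labelled groups CR-L, CR and WT. All 7 WT arrays lie in the high set (shaded at the left, 10 arrays), and the low set (shaded at the right) holds 6 CR-L and 4 CR arrays.

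The high set held 2 CR-L arrays, 1 CR array and all 7 WT arrays, and the low set held 6 CR-L arrays, 4 CR arrays and no WT array. As shares of each group, 15.4% of CR-L, 9.09% of CR and 100% of WT arrays were in the high set, against 46.2% of CR-L, 36.4% of CR and 0% of WT arrays in the low set. By group, the score averaged -0.24 ± 0.35 in CR-L (SD, n = 13), -0.094 ± 0.25 in CR (n = 11) and 0.40 ± 0.13 in WT (n = 7). A difference between the sets is therefore also a difference between restricted and WT offspring, and the sets and the WT label cannot be told apart in the full contrast. For that reason 3 more views are given beside it. The first repeats the choice among the 24 CR and CR-L arrays alone, with the 8 highest (5 CR and 3 CR-L) against the 8 lowest (3 CR and 5 CR-L), a view added after the data had been seen that shares 3 high and 8 low arrays with the main sets. The second fits the labelled group as a block, which leaves the 3 high and 10 low CR-L and CR arrays to carry the difference. The third is the slope of each gene on the score in the 11 middle arrays, which belong to neither set.

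The arrays lay on 8 slides, 6 slides held both sets, and within these 6 the score differed between high and low arrays by 0.53 to 1.33. WT 6, the array with the highest score, stood apart with a median red intensity of 235 and 83.6% of red spots well above background, against 69.8 to 93.9 and 57.5% to 65.0% on the other 30 arrays. Markers of T cells (17 of 18 measured), B cells (12 of 14) and monocytes (16 of 20) were measured, as the label PBMC calls for, but so were markers of granulocytes (13 of 18), platelets (12 of 16) and red cells (18 of 20), which a PBMC preparation is meant to leave behind. In bulk RNA, fewer cells of a type and less RNA per cell cannot be told apart.

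All 5 score genes differed between the sets, as the rule requires. Nfkbia ran from 0.12 to 0.68 (median 0.40) in high arrays and from -1.005 to -0.13 (median -0.43) in low arrays. Nfkbiz ran from 0.27 to 0.97 (median 0.44) in high arrays and from -1.46 to 0.02 (median -0.33) in low arrays. Tnfaip3 ran from -0.17 to 0.58 (median 0.14) in high arrays and from -1.26 to -0.38 (median -0.62) in low arrays. On the probes used, these 3 genes of feedback inhibition and Icam1 did not overlap between the sets, whereas Ccl3 did. The second Nfkbiz probe differed by 0.38, against 0.97 for the one used, and in the scanner software's ratio over both probes the lowest high array (0.036) lay just under the highest low array (0.038). Against WT, all 5 were lower in CR-L by limma with Benjamini-Hochberg adjustment, from a log2 difference of -0.54 ± 0.13 (SE, adjusted p = 0.015) for Icam1 to -0.73 ± 0.19 (adjusted p = 0.026) for Nfkbiz, where 1.4% of 22262 features were called lower and 3.54% in either direction. The genes were picked with such results of these data known, so their calls are no independent evidence. None of the 5 was called between CR and WT, where limma called 0.467% of features in either direction, or between CR-L and CR. Between CR-L and CR limma called 0 features, with 2.32% of features at an unadjusted p under 0.05.

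Outside the score genes, the values of the 10 high and 10 low arrays did not overlap for 25 of 22257 features. Of these, 19 were higher in the high set (0.0854% of features) and 6 lower (0.027%), and 17 had an established gene symbol. All 17 were singled out after their values were seen. The 12 higher were Map3k8, Tlr2, Tnf, Tollip, Irs2, Herpud1, Skil, Arih2, Rlim, Cks2, Ckap2 and Ccnl1, and the 5 lower were Sdf2, Nherf1, Uros, Mustn1 and Znhit2. Of the NF-kB lists used here, the receptors had 1 of 11 members without overlap (Tlr2), the cytokines and chemokines 1 of 15 (Tnf), and the adaptors, factors, inhibitors and other targets 0. As background, Tlr2 senses bacterial lipoproteins, Tollip restrains signalling from such receptors, Map3k8 is a kinase held by the NF-kB1 precursor, and Tnf is the cytokine that gave the tumour necrosis factor family its name. A second probe went the other way for Arih2 (-0.11, against 0.57 on the probe used) and for Uros (0.08, against -0.27). The deposited log2 table also gave 25 features without overlap, of which 8 were among the 25 here, and the scanner software's ratio gave 34, of which 16 were. Tnf was dim, with red well above background on 10 high and 7 low arrays. Among the 8 against 8 restricted arrays 13 features did not overlap, 8 higher (0.0359%) and 5 lower (0.0225%), and 4 of them were also among the 25. On the probes used, all 17 kept their direction in the 8 against 8 restricted arrays, which share 3 high and 8 low arrays with the main sets. With the labelled group as a block the direction was fixed in advance, since values without overlap keep their sign within CR and CR-L. Neither view is therefore independent support. In the middle arrays 14 of the 17 had a slope of the same sign, none of them at an unadjusted p under 0.05. Between CR-L and WT, 6 of the 17 were called lower and 3 higher by limma at an adjusted p under 0.05 (backgrounds 1.4% and 2.15%).

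Tlr2 ran from -0.25 to 0.45 (median 0.14) in high arrays and from -1.31 to -0.26 (median -0.52) in low arrays, a difference of 0.73. Map3k8 ran from 0.03 to 0.73 (median 0.22) in high arrays and from -1.39 to -0.15 (median -0.55) in low arrays, a difference of 0.85. Irs2, an adaptor of the insulin receptor, ran from -0.02 to 0.69 (median 0.45) in high arrays and from -0.67 to -0.04 (median -0.37) in low arrays. Irs2 has 5 probes, and the other 4 differed by 0.06 to 0.15, against 0.68 for the probe used. The lowest value of all 3 was among CR-L arrays of the low set, CR-L 6 for Tlr2 and Map3k8 and CR-L 2 for Irs2. With the group as a block the differences were 0.79 for Tlr2, 0.78 for Map3k8 and 0.38 for Irs2.

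Across all features, 45.2% had a higher mean in the high set, and the median difference was -0.01. The 15 largest positive differences among named, well detected genes ran from 0.83 to 1.68, and 7 of these genes are on the lists of NF-kB targets used here (Cxcl1, Cxcl2, Cxcl10, Il1b, Cd83, Ccrl2 and Gadd45b). Those lists held 15 secreted and 24 other targets measured, of 22257 features in all. They were drawn up with earlier results of these data known, so the overlap is no independent support. Cxcl2, a chemokine that draws neutrophils, had the largest positive difference. It ran from -0.85 to 1.85 (median 0.91) in high arrays and from -3.43 to 0.82 (median -0.62) in low arrays, so the sets overlapped although the means differed 3.20-fold. Its close relative Cxcl1 ran from -0.95 to 1.62 (median 0.67) in high arrays and from -1.98 to 0.86 (median -0.70) in low arrays. Il1b, the precursor of interleukin 1 beta, ran from -0.25 to 1.25 (median 0.66) in high arrays and from -2.32 to 0.76 (median -0.63) in low arrays. In each of these 3 genes CR-L 6 was the lowest array of all, and WT 3 was the lowest high array.

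The other positive differences, beside Cxcl1 at 1.24 and Il1b at 1.33, were 1.37 for Slc27a2, 1.31 for S100a9, 1.14 for Dusp2, 1.08 for S100a8, 1.05 for Cd83, 1.01 for Cxcl10, 1.00 for Ccrl2, 0.95 for Rgs1, 0.94 for Gadd45b, 0.85 for Map3k8, 0.84 for Atf3 and 0.83 for Gjb2. The other probes of S100a8 differed by 0.46 and 0.27, and the second probes of Cd83, Slc27a2 and Il1b by 0.54, 0.94 and 1.165. S100a8 and S100a9 form calprotectin, the calcium-binding protein of neutrophils and monocytes. Dusp2, Rgs1 and Atf3 are immediate early genes, Gadd45b is a stress-response gene, Cd83 marks activated dendritic and B cells, and Cxcl10 is a chemokine that interferon also induces. Slc27a2, a fatty acid transporter and acyl-CoA synthetase, ran from -3.92 to 0.61 (median 0.03) in high arrays and from -4.04 to 1.57 (median -2.32) in low arrays. Its very low values fell on WT 5 in the high set and on CR-L 2, CR-L 5, CR-L 6, CR-L 8 and CR 3 in the low set. The middle arrays CR 5 (-3.77), CR-L 9 (-3.72) and CR-L 13 (-3.99) were as low.

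All 15 kept a positive difference in the 8 against 8 restricted arrays (median 0.98, against 1.05 in the main sets), with the slide as a block and with the labelled group as a block. These views reuse arrays of the main sets, from which the 15 were picked, so the kept signs are no independent support. Cxcl2 differed by 2.17 and Cxcl1 by 1.68 among the restricted arrays alone, more than in the full contrast. In the middle arrays 14 of the 15 had a slope above 0, Gadd45b being the exception. Cxcl2 (3.66 ± 1.39 log2 per unit of score, SE), Slc27a2, S100a8 and S100a9 had an unadjusted p under 0.05 there, and no feature of 22257 passed after Benjamini-Hochberg adjustment in limma, while 3.07% had an unadjusted p under 0.05. None of the 15 was called in any of the 3 comparisons of labelled groups. Of all features, limma called 3.54% for CR-L against WT, 0.467% for CR against WT and 0% for CR-L against CR. At these shares 0 of 15 says little about the genes. The difference of the 15 genes between the sets lay in the red channel, where it ran from 0.82 to 1.65 on a log2 intensity scale. It did not lie in the pool in green, where it ran from -0.05 to 0.06. Without CR-L 2 and CR-L 6, the arrays with the lowest scores, the differences of Cxcl2, Il1b, S100a9 and Slc27a2 were 1.17, 0.99, 0.90 and 0.89.

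**Figure D2:**
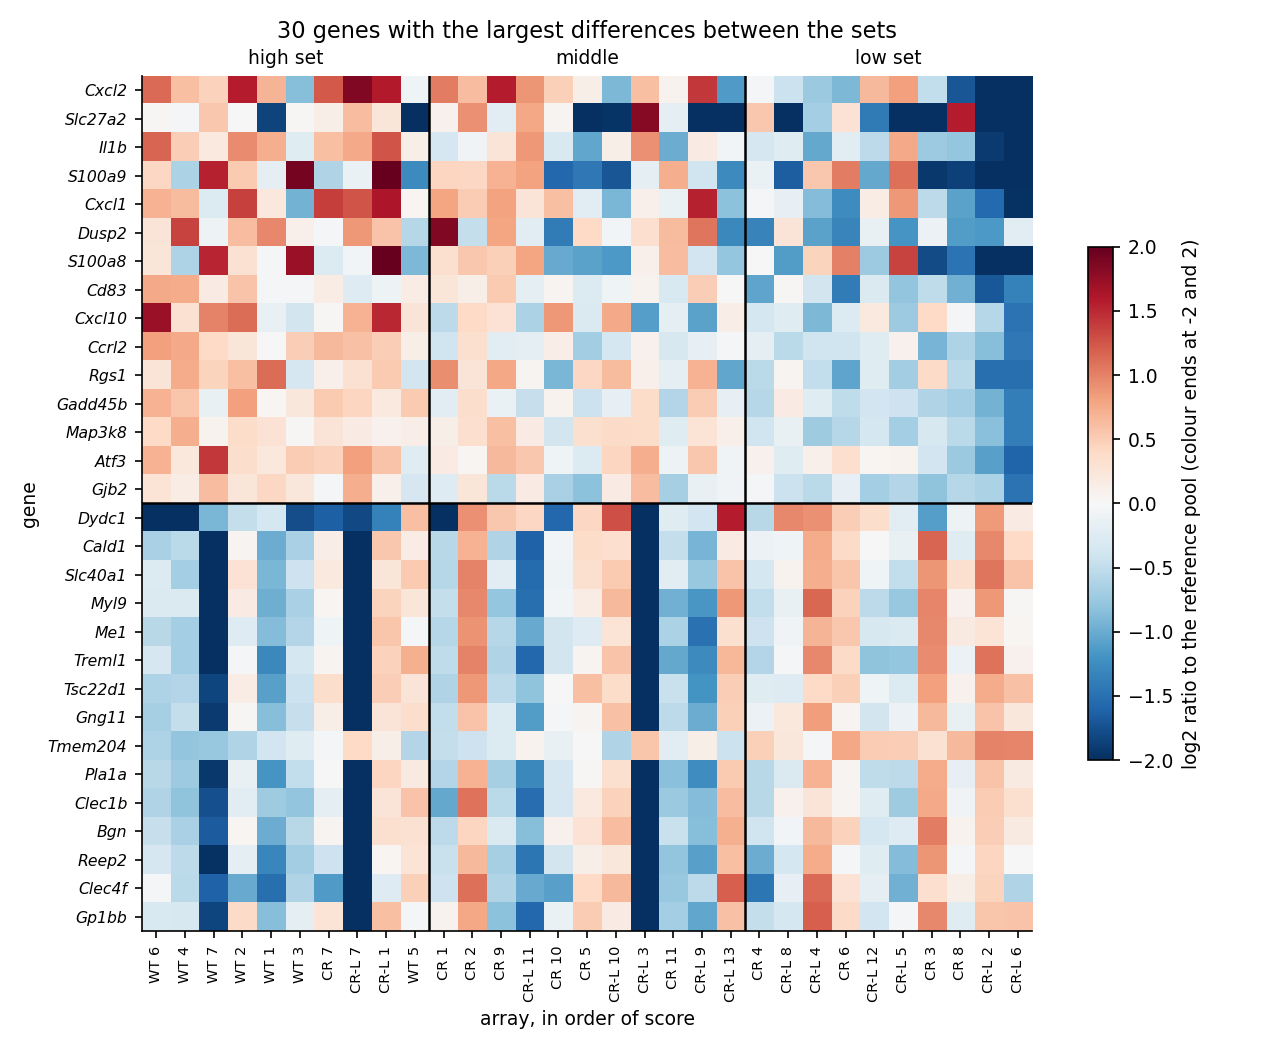
Colours give the log2 ratio to the pool of 30 genes (rows) on 31 arrays (columns, in order of score from high to low), with lines between the high set, the middle arrays and the low set. The 15 genes above the line have the largest positive and the 15 below it the largest negative differences, and the very low values of most lower genes fall on WT 7, CR-L 7 and the middle array CR-L 3.

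Several platelet markers stood among the 15 largest negative differences, which ran from -0.81 to -1.39. Treml1, Clec1b and Gp1bb, receptors of the platelet surface or its granules, are on the platelet marker list used here, and Myl9, a myosin light chain, and Gng11, a G protein subunit, are known as abundant platelet messages. Treml1 ran from -4.24 to 0.71 (median -0.34) in high arrays and from -0.80 to 1.08 (median 0.03) in low arrays. Over the 12 platelet markers measured, 12 had a lower mean in the high set, with a median difference of -0.65 against -0.01 over all features. The list mean ran from -2.36 to 0.47 (median -0.30) in high arrays and from -0.39 to 0.73 (median 0.08) in low arrays, and the sets overlapped widely. CR-L 7 at -2.36 and WT 7 at -1.47 lay far below the rest of the high set, and without them the median difference was -0.26. The middle array CR-L 3 had the lowest mean of all, -2.80, and 10 of 12 platelet slopes in the middle arrays were above 0, opposite to the difference between the sets. Of the 15 genes, 2 kept the sign of the difference in the middle slopes, Dydc1 and Tmem204. Tmem204, a membrane protein of blood vessels, was also the only 1 of the 15 called between labelled groups (0.83 ± 0.18, SE, higher in CR-L than in WT, adjusted p = 0.0073 by limma). Of all features, 2.15% were called higher in CR-L than in WT. The difference of Tmem204 between the sets was -0.89, or -0.38 with the group as a block.

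The genes of the pathway itself were described by role, with lists drawn up with earlier results known. Of 11 receptors measured, 8 had a higher mean in the high set, with a median difference of 0.18. Apart from Tlr2, the largest were Cd14, the monocyte coreceptor for lipopolysaccharide (0.61), and Cd40, the receptor for T cell help on B cells (0.39). Cd14 ran from -0.60 to 0.73 (median 0.25) in high arrays and from -1.34 to 0.29 (median -0.28) in low arrays. Among the restricted arrays alone 10 of 11 receptors were higher (48.6% of all features were), but in the middle arrays only 1 of 11 slopes was above 0, against 49.2% of all features. With the group as a block Cd40 differed by -0.0012.

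Adaptors and kinases showed no common direction. Of 20 measured, 10 were higher and 10 lower in the high set, with a median of -0.00076. Traf6, the ubiquitin ligase that carries signals from interleukin 1 and Toll-like receptors, differed by 0.67. It ran from -0.24 to 0.83 (median 0.31) in high arrays and from -0.87 to -0.04 (median -0.42) in low arrays. Ticam1, the adaptor of Toll-like receptor 3, differed by -0.34, and Traf5, an adaptor of tumour necrosis factor receptors, by -0.26. Traf6 was lower than in WT both in CR-L (-0.68 ± 0.14, SE, adjusted p = 0.0048) and in CR (-0.60, adjusted p = 0.049), and Ticam1 was higher in CR-L (0.44 ± 0.10, adjusted p = 0.011), all by limma. The CR call ended with the deposited log2 table and with the replicate number as a block, where CR against WT had 0 calls. With the group as a block the differences between the sets were 0.19 for Traf6 and -0.03 for Ticam1. CR against WT had 0.112% of features called lower.

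Of the 3 DNA-binding subunits measured, Nfkb2 differed by 0.20, Rela by 0.15 and Nfkb1 by -0.0012. Nfkb1, the precursor of p50, ran from -0.01 to 0.29 in high arrays and from 0.02 to 0.28 in low arrays, so the sets overlapped almost wholly. Inhibitors other than the score genes were higher in the high set in 8 of 12 cases, with a median of 0.07. That median was 0.017 with the group as a block, and 5 of 12 inhibitor slopes in the middle arrays were above 0. Zc3h12a, an RNase that destroys cytokine messages, differed by 0.55, the nuclear IkB protein Bcl3 by 0.54 and the IkB protein Nfkbie by 0.47. Nfkbie ran from -0.10 to 0.32 (median 0.09) in high arrays and from -0.69 to -0.08 (median -0.38) in low arrays, nearly apart. Tnfaip8l2, which restrains receptor signalling in immune cells, went the other way (-0.29). Bcl3 was lower in CR-L than in WT (-0.49 ± 0.13, SE, adjusted p = 0.025) and Tnfaip8l2 higher (0.37 ± 0.10, adjusted p = 0.035).

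Secreted targets were higher in the high set for 11 of 15 members, with a median difference of 0.24. Beyond those already named, Cxcl3 differed by 0.72, the monocyte chemokine Ccl2 by 0.41 and the interleukin 1 receptor antagonist Il1rn by 0.31. Csf1, the growth factor of macrophages, differed by -0.20. In the middle arrays 14 of the 15 slopes were above 0, 1 of them at an unadjusted p under 0.05. The median depended on the processing: it was 0.54 with the scanner software's own ratio and 0.10 with no filter on dim probes. It was 0.13 without CR-L 2 and CR-L 6.

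Other targets were higher for 18 of 24 members, with a median of 0.12, but in the middle arrays 9 of the 24 slopes were above 0. Birc3, an inhibitor of cell death, differed by 0.62 and Sdc4, a cell surface proteoglycan, by 0.44, with 0.11 for Birc3 and 0.41 for Sdc4 once the group was a block. Birc3 was lower in CR-L than in WT (-0.66 ± 0.15, SE, adjusted p = 0.012 by limma). Not all targets shared this direction. Traf1, an adaptor induced by NF-kB, ran from -0.46 to 0.30 (median -0.14) in high arrays and from -0.06 to 0.58 (median 0.32) in low arrays, a difference of -0.49. The mitochondrial superoxide dismutase Sod2 differed by -0.37. Both kept a negative difference among the restricted arrays alone, -0.38 for Traf1 and -0.41 for Sod2. The lowest Sod2 values fell on CR-L 3 (-1.63), CR-L 7 (-1.02) and WT 7 (-0.82), the arrays with the lowest platelet list means. The part of platelets in the Sod2 difference was not tested.

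Immediate early genes, which cells switch on within minutes of a stimulus, were higher in the high set for 29 of 32 members, with a median of 0.28. The list mean ran from -0.10 to 0.31 (median 0.15) in high arrays and from -0.57 to -0.00 (median -0.12) in low arrays. Fos, a subunit of the AP-1 factor, ran from -0.73 to 0.84 (median 0.20) in high arrays and from -1.49 to 0.31 (median -0.32) in low arrays. Among the restricted arrays 29 of 32 were again higher, with a median of 0.28, and in the middle arrays 19 of 32 slopes were above 0. Their part in the differences of the NF-kB targets was not tested.

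**Figure D3:**
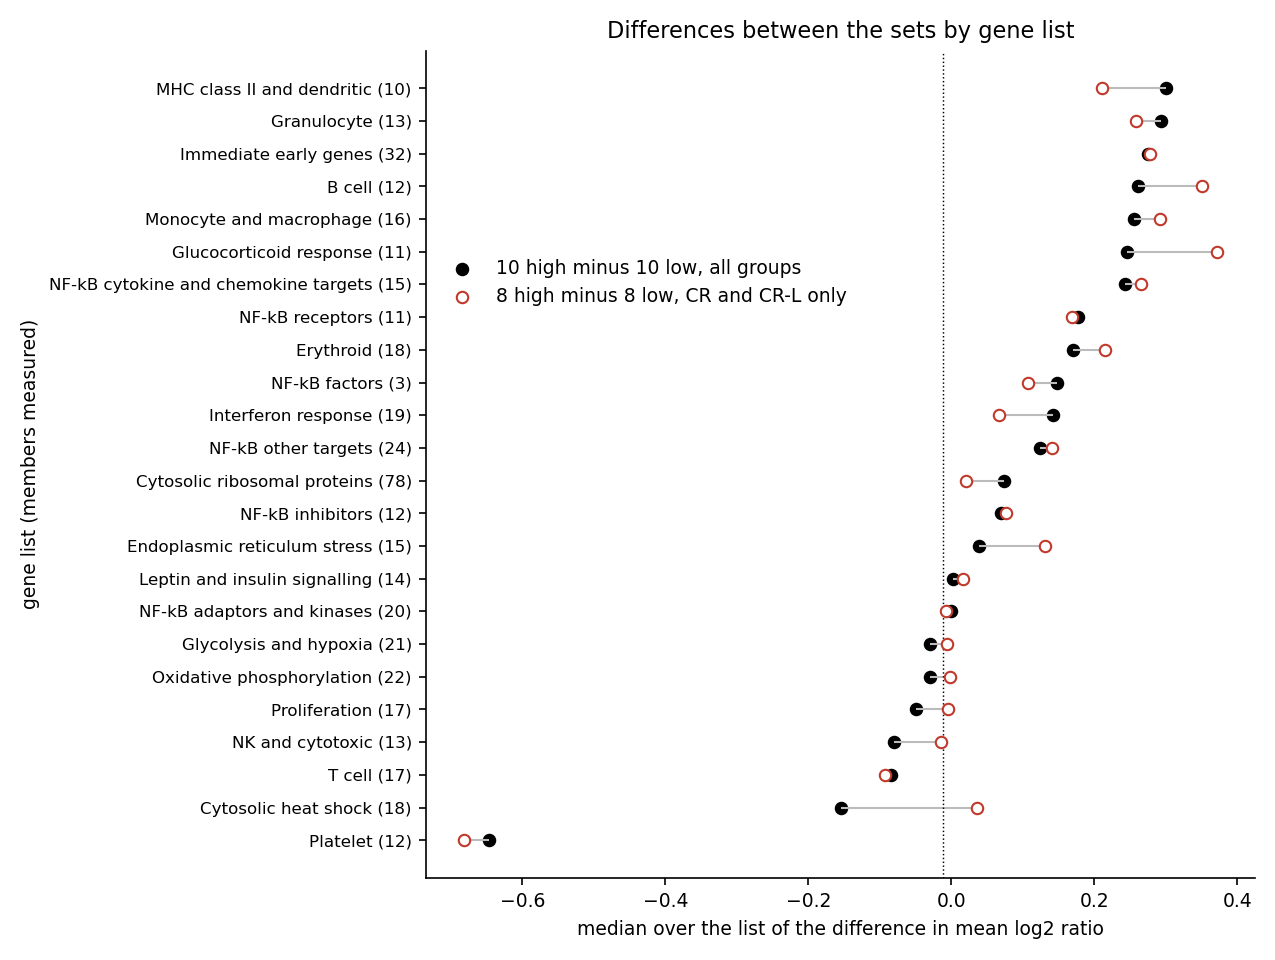
Each row is a gene list with its number of measured members, and the x axis gives the median over its members of the difference in mean log2 ratio between high and low arrays. Filled points are the 10 against 10 arrays of all groups, open points the 8 against 8 arrays of CR and CR-L alone, and the dotted line is the median of all features (-0.01). Platelet markers lie at -0.65 and -0.68, and heat shock genes at -0.15 and 0.04, on both sides of 0.

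Markers of several blood cells moved with the sets. Monocyte and macrophage markers were higher in the high set for 14 of 16 members (median 0.26), led after Cd14 by the Fc receptor Fcgr3a (0.35), the proteoglycan Vcan (0.35) and the oxidase subunit Cybb (0.35). Their list mean ran from -0.13 to 0.32 in high arrays and from -0.47 to 0.19 in low arrays, and in the middle arrays 4 of 16 slopes were above 0. Granulocyte markers were higher for 12 of 13 members (median 0.29), with 0.74 for Camp, an antimicrobial peptide, and 0.43 for Lcn2, an iron-trapping protein. Their list mean ran from -0.36 to 1.19 (median 0.02) in high arrays and from -0.79 to 0.64 (median -0.32) in low arrays, with WT 3, WT 7 and CR-L 1 high above the others of the high set. The granulocyte median was 0.86 with the scanner software's own ratio. In the middle arrays 10 of 13 granulocyte slopes were above 0 and 6 had an unadjusted p under 0.05, among them Camp and Lcn2 (2.08 ± 0.67 log2 per unit of score, SE, unadjusted p = 0.0087), with 3.07% of all features at that level.

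B cell markers were higher in the high set for 12 of 12 members, with a median of 0.26, which was 0.35 among the restricted arrays alone and 0.09 with the group as a block. Ebf1, a factor of B cell identity, ran from -0.71 to 0.30 (median -0.01) in high arrays and from -1.34 to 0.11 (median -0.68) in low arrays. Class II genes, read on B cells and dendritic cells, were higher for 7 of 10 members (median 0.30), with 0.43 for the invariant chain Cd74, and the median was 0.10 with the group as a block. Red cell genes were higher for 14 of 18 (median 0.17). Their list mean went the other way at the median over arrays. It ran from -0.88 to 0.50 (median -0.35) in high arrays and from -1.66 to 0.60 (median -0.24) in low arrays. T cell markers were higher for 4 of 17 (median -0.08) and cytotoxic markers for 4 of 13 (median -0.08), with -0.34 for Cd5, a T cell surface receptor, and -0.38 for Ctsw, a protease of cytotoxic cells. None of the monocyte, granulocyte, B, T, cytotoxic or platelet markers was called between labelled groups by limma. Of all features, 3.54% were called for CR-L against WT, 0.467% for CR against WT and 0% for CR-L against CR. The lack of calls therefore does not show that these markers were equal between groups. The part of these markers in the higher NF-kB targets of the high set was not tested.

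**Figure D4:**
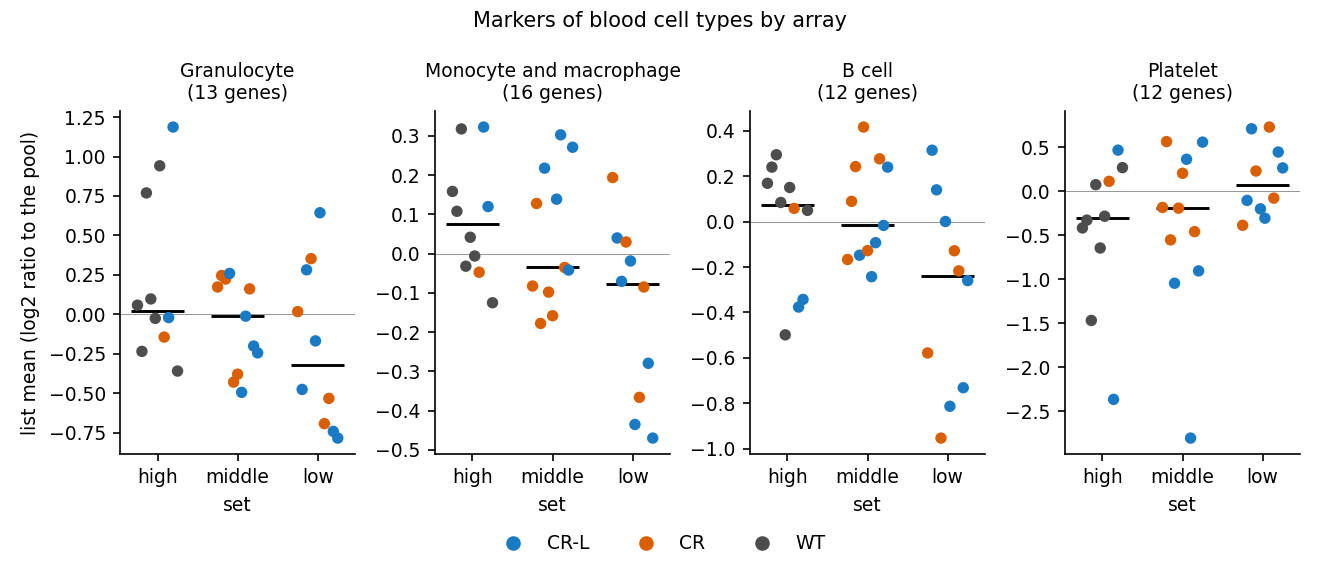
Each point is the mean log2 ratio of a marker list on 1 array, by set and coloured by labelled group, and the black bars are medians. Granulocyte medians are 0.02 in the high and -0.32 in the low set, platelet medians -0.30 and 0.08, and all 4 lists overlap between the sets.

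Other programmes were mixed. Glucocorticoid targets were higher in the high set for 9 of 11 members (median 0.25), with 0.65 for the factor Klf9, 0.53 for the chemokine receptor Cxcr4 and 0.50 for the clock gene Per1, and 10 of 11 slopes in the middle arrays were above 0. Klf9 ran from -0.50 to 0.52 (median 0.02) in high arrays and from -0.96 to -0.20 (median -0.71) in low arrays. Interferon response genes were higher for 15 of 19 (median 0.14), yet 2 of 19 slopes in the middle arrays were above 0. Ribosomal protein genes were higher for 74 of 78 by a small amount (median 0.07), and for 49 of 78 among the restricted arrays alone (median 0.02).

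Cytosolic heat shock genes were higher in the high set for 2 of 18 members, with a median of -0.15, but for 13 of 18 among the restricted arrays alone, with a median of 0.04, and the median was 0.15 with the group as a block. Hspa4, a cochaperone of the Hsp70 family, differed by -0.37 between the sets and by 0.01 with the group as a block, and was higher than in WT in CR-L (0.40 ± 0.10, SE, adjusted p = 0.016) and in CR (0.50, adjusted p = 0.017) by limma. The CR call ended with the deposited table and with the replicate block, and a second Hspa4 probe differed by 0.08 between the sets, opposite to the probe used. The background for higher calls was 2.15% in CR-L and 0.355% in CR.

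Leptin and insulin signalling had 7 of 14 members higher in the high set and a median of 0.0022. Irs2 had the largest difference on the probe used, given above, followed by the insulin-regulated factor Foxo1 (0.42) and Socs3, the feedback inhibitor of cytokine and leptin receptors (0.37). Foxo1 was lower than in WT in CR-L (-0.48 ± 0.09, SE, adjusted p = 0.0030) and in CR (-0.46, adjusted p = 0.025, a call that ended with the deposited table and with the replicate block), and its difference between the sets was 0.08 with the group as a block. Socs3 was not called between groups and differed by 0.57 with the group as a block. Irs2 was lower in CR-L than in WT (-0.56 ± 0.14, adjusted p = 0.021) and was not called in CR (adjusted p = 0.16).

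Glycolysis and hypoxia genes were higher for 6 of 21 members (median -0.03), oxidative phosphorylation for 9 of 22 (median -0.03), proliferation for 6 of 17 (median -0.05) and endoplasmic reticulum stress for 10 of 15 (median 0.04), the last with Herpud1, which helps clear misfolded proteins, at 0.48. Cox7c, a respiratory chain subunit, differed by 0.46 and was lower in CR-L than in WT (-0.44 ± 0.09, SE, adjusted p = 0.0038 by limma), while its second probe differed by 0.06 between the sets. By p, the leading features of the middle arrays included Crat, Rnase11, Nudt3, Clec2d, Kifc2, Mmp8, Kcnh1 and Lhcgr. Their unadjusted p ran from 0.00095 for Crat to 0.0028 for Lhcgr, none passed adjustment, and Mmp8, a neutrophil collagenase, is the only 1 of them on the lists above. Mmp8 was dim, with red well above background on 5 high and 4 low arrays.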

How the data were processed

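RNA of 31 rat PBMC samples was hybridised to Agilent 2-colour arrays, 200 ng of RNA per sample, per the labels. The authors deposited 1 scanner file per array with spot and background intensity and a log10 ratio of red over green, which per the file headers is dye-normalized. The submitters' processing notes name Feature Extraction 10.7.3.1 as the software. The authors also deposited a table of log2 values; it tracked log2 red intensity (lowest correlation 0.993), every column had a median of 8.17, and its further normalization is not given in the sources used here. No dye was swapped, so a ratio to the pool holds any dye effect, and a difference between arrays cancels the share common to all arrays.

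The score used the deposited ratio, turned to log2. All other values came from limma 3.58.1 in R 4.3.3: normexp with an offset of 50, which pulls ratios of dim spots towards 0, then loess within each array. Control spots (1639 of 45018) and outlier values (0.408%) were left out and spots of a probe averaged. Probes well above background in red on at least 7 arrays were kept (26721 of 41012), with the brightest probe per symbol, giving 22262 features. Symbols were updated through RefSeq (18971 probes by accession).

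Sets were compared by means, with no test. limma (lmFit, eBayes, two-sided, Benjamini-Hochberg at 0.05) gave the slopes in the 11 middle arrays and the comparisons of CR, CR-L and WT over all 31 arrays. It was tested on simulated data. The set rule, the 24 gene lists and the named-gene rule (the 15 largest differences per direction, up to 8 members per NF-kB list and 4 per other list, and the 10 smallest p in the middle arrays) were chosen with earlier results of these data known. Not every gene that the rule takes is printed, and some are not reported here. The number of arrays limits the precision, and p-values set a difference against the spread between samples, which are taken as independent.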

Additional observations from a re-analysis of the deposited data

Results flagged for a closer look

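The 121 groups examined held 10 arrays each, but for the score in the WT group, which held 7. Of the 121, 8 held a highest or lowest array far from its nearest neighbour relative to the group's range. Chance alone would flag about 1 group in 20 at this level (0.05). In the high set, Map3k8 was 0.73 in WT 4, the glucocorticoid list mean was -0.38 in WT 3, the ribosomal protein list mean was 0.41 in WT 1 and the list mean of NF-kB adaptors and kinases was -0.069 in CR-L 1. In the low set, the class II list mean was 0.49 in CR-L 4, the heat shock list mean was 0.69 in CR 3, the interferon list mean was -0.51 in CR-L 5 and the oxidative phosphorylation list mean was -0.32 in CR-L 5. The 2 flags in CR-L 5 were the only ones that shared an array.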

How the results depend on the processing

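Under 10 other ways to compute the score, 9 to 10 high and 8 to 10 low arrays stayed in their set, no array crossed over, and 6 to 7 of the high arrays were WT. The 25 features without overlap became 123 with 8 against 8 arrays, 3 with 12 against 12, 400 with 5 against 5 CR-L arrays, and, in views added after the data had been seen, 13 with CR and CR-L arrays only and 57 without WT 7 and CR-L 7. The cause was not tested, though smaller sets overlap less by construction. Without WT 6 it was 26, in the other alternatives that give this count 24 to 34, and a block gives none. These counts hold partly different features: 8 of the 25 with the deposited table and 16 of the 34 with the scanner software's ratio were among those reported. For the 5 score genes and the 15 largest differences in each direction, 490 values were computed under alternatives. Of these, 479 moved by less than the spread between arrays, 11 moved more and 0 reversed. Part of the 479 could not move: scaling intensities between arrays, a stricter detection filter and no filter left every one of these gene values unchanged. The score genes also chose the sets, and the other genes were picked by these differences, so their direction is no support. Genes other than the score genes and the largest differences were not run under all alternatives, and Cd40 and Hspa4 changed sign with the group as a block. Of 336 list medians 16 reversed, and the cause was not tested. For adaptors and kinases the median was 0.014 with the scanner software's ratio, 0.0096 with slide as a block, 0.0066 with 8 and 0.0034 with 12 arrays a set, 0.0097 in CR-L only, 0.0037 without WT 6 and 0.0026 without WT 7 and CR-L 7. With the group as a block it was 0.15 for heat shock, 0.024 for glycolysis and 0.015 for oxidative phosphorylation. In CR-L only it was 0.050 for heat shock, 0.026 for oxidative phosphorylation, 0.037 for cytotoxic and -0.020 for red cell genes. It was 0.035 for heat shock in CR and CR-L only and 0.017 for cytotoxic genes with 12 arrays a set.

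Slopes in the middle arrays gave 0 calls in every alternative run, with 457 to 1392 features at an unadjusted p under 0.05. CR against WT gave 104 calls, 65 with the scanner software's ratio, 0 with the deposited log2 table (2135 at an unadjusted p under 0.05), 170 with probes detected on all arrays and 0 with the replicate number as a block (3648 unadjusted). CR-L against WT gave 789 calls, 500 with the deposited table and 187 with the replicate block, which uses only the 7 numbers the groups share. Deviations of same-numbered arrays from their group means had correlations from -0.426 to 0.445. No differently numbered pairs were set beside them, so whether the numbers pair the arrays was not settled. CR-L against CR gave 0 calls by limma in every alternative run (256 to 708 at an unadjusted p under 0.05).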
